A study of Mus musculus with 8 samples.

Results

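The Hox cluster genes are the homeobox transcription factor genes of the HoxA, HoxB, HoxC and HoxD clusters. They were taken here as the gene rows whose symbol is Hoxa, Hoxb, Hoxc or Hoxd followed by a number only, which gave 39 of the 24062 gene rows counted beside 1153 repeat subfamilies. There were 11 genes of HoxA, 10 of HoxB, 9 of HoxC and 9 of HoxD. They were followed by RNA-seq of polyadenylated RNA in 8 libraries of mouse embryonic stem cells (mESCs), 2 biological replicates for each of 4 conditions. All libraries came from 1 line, #33-6, which carries a conditional allele of Setdb1, the gene of an H3K9 methyltransferase, and was cultured with LIF on gelatin. WT mESCs were the untreated line. UNC0642-treated mESCs received 2 µM UNC0642, a catalytic inhibitor of the H3K9 methyltransferases G9a and GLP, for 3 days. Setdb1 KO mESCs received 800 nM 4-OHT, which induces deletion of Setdb1, for 5 days. The labels give the UNC0642-treated Setdb1 KO mESCs 800 nM 4-OHT for 2 days followed by 2 µM UNC0642 for 3 days, whereas the methods describe 5 days of 4-OHT. This is called the combined condition below. As 1 line was used, the spread between replicates is that between cultures of this line.

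Hox genes specify position along the body axis. Within a cluster they lie in the order in which they are used, from the anterior paralog groups with low numbers to the posterior ones with high numbers. In mESCs they are a textbook case of Polycomb silencing: PRC2 places H3K27me3 over the clusters, PRC1 binds there and ubiquitinates H2A, and retinoic acid and Wnt signals later open them from the anterior end. Germline genes such as Taf7l and Slc25a31, by contrast, are held silent in mESCs with a contribution of H3K9 methylation and DNA methylation. Chromatin was not measured in these libraries.

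On GRCm38 the clusters lie at chr6:52155590-52260880 (HoxA, minus strand), chr11:96194316-96368256 (HoxB, plus strand), chr15:102921103-103036852 (HoxC, plus strand) and chr2:74668310-74765142 (HoxD, plus strand). RefSeq promoter sequences (GRCm38.p6) were at hand for 22 of the 39 genes. The 250 bases before the listed start are shown for Hoxa3, Hoxa5 and Hoxc4, the 3 genes with the smallest p in the combined condition, for Hoxd13, whose level overlapped WT in every treated condition, and for Slc25a31, a germline gene that rose in Setdb1 KO mESCs. Capitals mark CpG dinucleotides, the sites of DNA methylation and, where dense and unmethylated, of Polycomb recruitment in mammals. The windows are chr6:52213068-52213317 (Hoxa3, minus strand), chr6:52204588-52204837 (Hoxa5, minus strand), chr15:103034145-103034394 (Hoxc4, plus strand), chr2:74667975-74668224 (Hoxd13, plus strand) and chr3:40708621-40708870 (Slc25a31, plus strand). Those of Hoxa3 and Hoxc4 lie within the span of their own gene in GENCODE, which also lists starts farther upstream.
Hoxa3: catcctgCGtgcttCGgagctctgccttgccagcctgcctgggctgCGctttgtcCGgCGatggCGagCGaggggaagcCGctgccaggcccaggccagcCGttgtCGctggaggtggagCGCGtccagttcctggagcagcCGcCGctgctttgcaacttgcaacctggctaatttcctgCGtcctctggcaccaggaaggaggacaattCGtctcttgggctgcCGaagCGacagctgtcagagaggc
Hoxa5: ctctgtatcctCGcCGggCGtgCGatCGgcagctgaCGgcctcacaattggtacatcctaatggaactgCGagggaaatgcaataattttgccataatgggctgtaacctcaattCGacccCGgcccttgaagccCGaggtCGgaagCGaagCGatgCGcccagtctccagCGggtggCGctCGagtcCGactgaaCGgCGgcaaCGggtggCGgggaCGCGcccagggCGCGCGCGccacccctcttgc
Hoxc4: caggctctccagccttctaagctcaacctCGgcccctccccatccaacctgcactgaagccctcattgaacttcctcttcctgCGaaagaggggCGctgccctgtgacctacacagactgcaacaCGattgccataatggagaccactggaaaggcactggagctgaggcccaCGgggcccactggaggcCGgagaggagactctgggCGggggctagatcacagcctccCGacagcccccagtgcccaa
Hoxd13: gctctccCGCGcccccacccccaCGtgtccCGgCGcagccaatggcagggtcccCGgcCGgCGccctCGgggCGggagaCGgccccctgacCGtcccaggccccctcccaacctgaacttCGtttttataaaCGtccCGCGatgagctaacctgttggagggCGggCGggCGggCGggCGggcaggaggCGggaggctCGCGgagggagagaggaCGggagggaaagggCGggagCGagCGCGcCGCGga
Slc25a31: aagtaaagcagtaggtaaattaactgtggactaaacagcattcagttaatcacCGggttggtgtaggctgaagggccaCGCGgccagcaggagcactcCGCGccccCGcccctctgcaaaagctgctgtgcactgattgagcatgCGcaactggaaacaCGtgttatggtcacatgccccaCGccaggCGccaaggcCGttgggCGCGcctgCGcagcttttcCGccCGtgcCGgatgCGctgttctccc

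The number of CpGs in these 250 bases was 18 for Hoxa3, 28 for Hoxa5, 8 for Hoxc4, 31 for Hoxd13 and 18 for Slc25a31. The observed over expected CpG ratio was 0.687, 1.11, 0.340, 0.901 and 0.812 in the same order, so that Hoxa5 and Hoxc4, which had similar fold changes below, stood near opposite ends. Across the 22 Hox promoters the ratio ranged widely, with a median of 0.603, and 11 of 22 (50%) were above 0.6. The median was 0.378 and the share above 0.6 was 34.5% over all 27025 promoters, against 0.705 over promoters of tested genes. It was 0.678 for 14 other Polycomb targets and 0.691 for 20 germline genes. Genes that exceeded their WT level more than 10-fold in the combined condition, a set chosen by their level, had a median of 0.237 over the 276 of 399 with a promoter entry.

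**Figure D1:**
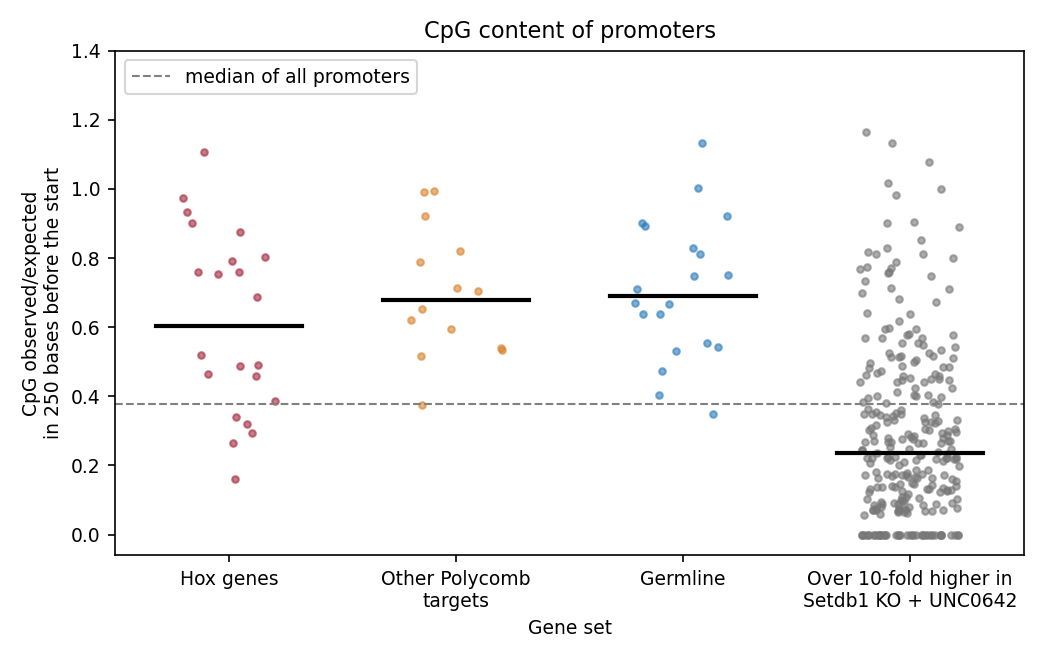
Observed over expected CpG ratio in the 250 bases before the start (y axis) for promoters of 4 gene sets, with 1 point per gene, horizontal bars at the median and a dashed line at the median of all promoters. Hox promoters (median 0.603) lay with other Polycomb targets (0.678) and germline genes (0.691), and genes over 10-fold higher in the combined condition (0.237) lay below.

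The letters CACGTG, an E-box that reads the same on both strands, were in 3 of 22 Hox promoters (13.6%: Hoxd1, Hoxd10 and Hoxd13), in 11 of 20 germline promoters (55%), Slc25a31 and Taf7l among them, and in 6.05% of all promoters. TTTATGG, searched on both strands as a sequence of the kind bound by caudal and posterior HOX proteins, was in the window of Hoxd4 only (4.55% of Hox promoters, 2.45% of all). Direct repeats of the letters GGTCA with 5 or 2 bases between them were searched on both strands. They were in no Hox window, against 0.0666% and 0.141% of all promoters. A match is a description of the letters only.

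The depth was 11702590 to 26807807 counts per library, so that 3 counts, taken as the detection floor, corresponded to 0.108 to 0.311 CPM, that is, counts relative to the library's scaled total. Setdb1 was at 169 and 127 CPM in WT, 130 and 86.3 with UNC0642, 47.3 and 51.0 in Setdb1 KO and 61.1 and 34.1 CPM in UNC0642-treated Setdb1 KO mESCs, as counted over the whole gene. Its log2 fold change was -1.59 in Setdb1 KO (edgeR adjusted p = 0.181, 0.0164 with a replicate block) and -1.64 in the combined condition (0.0746, 0.00593 with the block). All 10 mESC markers were detected in every library, with Pou5f1 at 566 to 1196 CPM. Markers of embryonic fibroblasts, cells that use Hox genes, summed to 12.1 and 26.7 CPM in WT and to 7.66 to 27.4 CPM over all libraries. They were higher in replicate 2 of every condition, whereas the summed Hox level was higher in replicate 2 of the 3 treated conditions and lower in replicate 2 of WT. 5 of the 10 were at 0 in replicate 1 of WT. Col1a1 was at 1.35 to 2.87 CPM in the replicates 1 and at 7.35 to 9.60 CPM in the replicates 2. Of the markers of fibroblasts, primitive endoderm, trophectoderm, mesoderm, neural cells and primed epiblast, Fgf5 of the primed epiblast was the only one called against WT by edgeR without the block, with a log2 fold change of 4.64 in the combined condition (adjusted p = 0.0493). With the block Fgf5, Otx2 of the primed epiblast and Lum of fibroblasts were higher in the combined condition (9.98% of all features). Pdgfrb of fibroblasts (-2.74, adjusted p = 0.0122), Lama1 of primitive endoderm (-1.58, 0.0320) and Eomes of the trophectoderm and mesoderm lists (-1.77, 0.0347) were lower in that fit (7.19% of all features). Lum had 0 counts in both WT libraries against 28 and 39. In Setdb1 KO the block gave Fgf5 and Otx2 as higher (3.8% of all features) and Lama1 as lower (0.492%). The part of such cells in the Hox level was not tested, and in bulk RNA fewer cells of a type and less RNA per cell cannot be told apart.

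Hox transcripts were rare in every library. The 39 genes together had 311 and 548 counts in WT, 330 and 742 with UNC0642, 345 and 460 in Setdb1 KO and 85 and 408 in the combined condition. 12 genes never had more than 3 counts in a library, 21 never more than 10, and Hoxc11 had 0 throughout. Hoxb9, Hoxc13 and Hoxd13 were among the genes above 3 counts in all 8 libraries, and 27 were above 3 counts in at least 1. 13 genes passed the expression filter and could be tested, at means of at least 0.399 CPM, and they held 85.9% of all Hox counts. The 26 others had means up to 0.352 CPM and no count above 31.

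**Figure D2:**
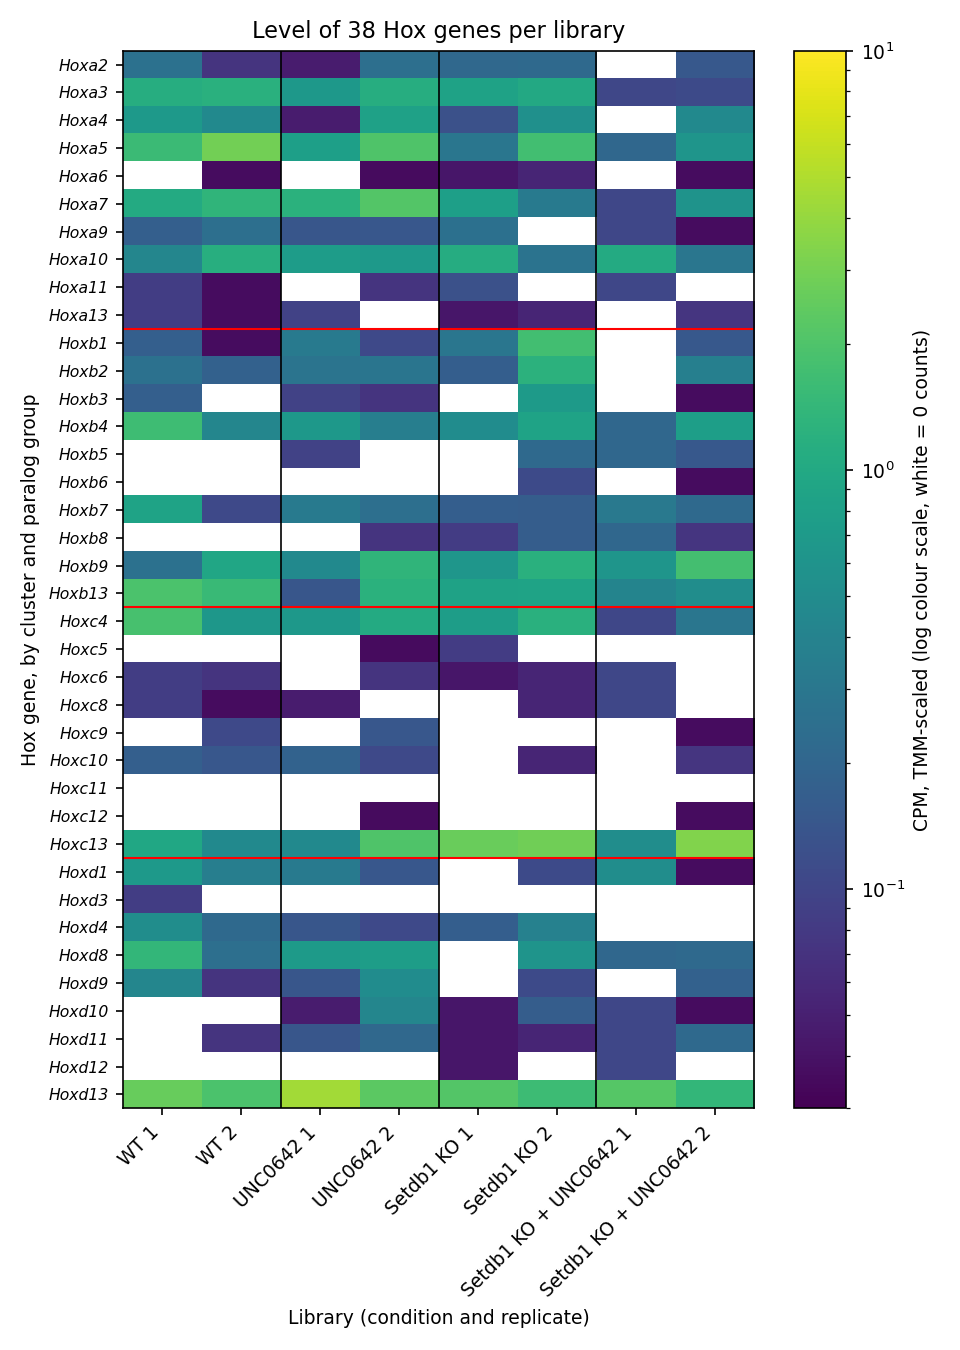
Level of 38 Hox genes (y axis, by cluster and paralog group) in each of the 8 libraries (x axis) as CPM on a logarithmic colour scale, white being 0 counts. Hoxd13 was above 1 CPM in all 8 libraries, and replicate 1 of UNC0642-treated Setdb1 KO mESCs had the most white cells (16 of 38).

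Levels were compared between genes per kilobase of exon. The mean over the 8 libraries was 0.937 CPM per kilobase for Hoxd13, 0.674 for Hoxc13 and 0.673 for Hoxa5. No Hox gene reached the median of the tested genes, 3.75 CPM per kilobase over 15168 genes. Pou5f1, for comparison, was at 347 CPM per kilobase.

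The summed Hox level was 27.1 CPM (95% Poisson interval 24.1 to 30.3) and 19.8 CPM (18.1 to 21.5) in WT, with intervals that cover counting error only. It was 15.5 (13.9 to 17.3) and 26.7 CPM (24.8 to 28.7) with UNC0642, and 14.6 (13.1 to 16.2) and 25.3 CPM (23.0 to 27.7) in Setdb1 KO. It was 8.82 (7.04 to 10.9) and 15.0 CPM (13.6 to 16.5) in UNC0642-treated Setdb1 KO mESCs. UNC0642 and Setdb1 KO libraries thus overlapped WT, with replicate 1 below both WT libraries and replicate 2 between them, and both libraries of the combined condition lay below both WT libraries. The mean was 23.4 ± 5.16 CPM in WT (SD, n = 2) and 11.9 ± 4.37 CPM in the combined condition, a ratio of 0.508. Within replicate 1 the ratio to WT was 0.573 with UNC0642, 0.539 in Setdb1 KO and 0.326 in the combined condition, and within replicate 2 it was 1.35, 1.28 and 0.759. The sums were not tested.

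**Figure D3:**
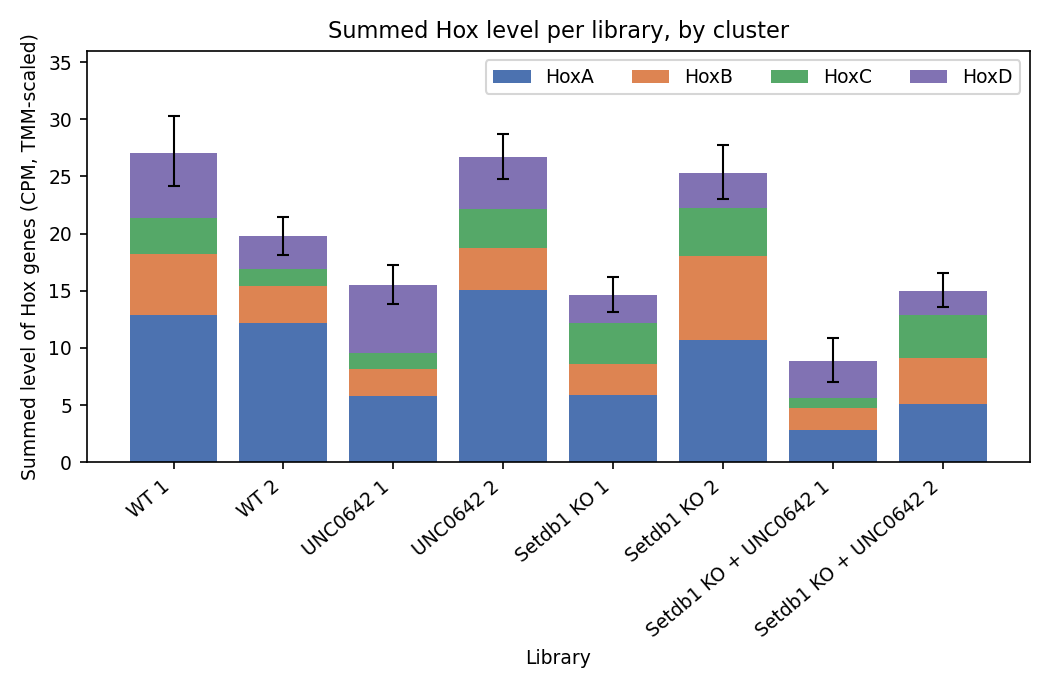
Summed level of the 39 Hox genes (y axis, CPM) in each library (x axis), stacked by cluster, with 95% Poisson intervals of the total as error bars. The libraries of the combined condition (8.82 and 15.0 CPM) lay below those of WT (27.1 and 19.8 CPM), mostly through a lower HoxA part.

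HoxA held the most Hox counts in WT, at 12.9 and 12.2 CPM. It was at 5.78 and 15.0 CPM with UNC0642, 5.92 and 10.7 CPM in Setdb1 KO and 2.80 and 5.07 CPM in the combined condition, where the groups did not overlap with WT. HoxB was at 5.31 and 3.25 CPM in WT against 1.97 and 4.08 CPM in the combined condition. HoxC was at 3.13 and 1.48 CPM in WT against 0.831 and 3.75 CPM, and HoxD at 5.75 and 2.89 CPM against 3.22 and 2.1 CPM. The groups overlapped for these 3 clusters. The number of Hox genes above 3 counts was 16 and 18 in WT and 7 and 19 in the combined condition, and 16 and 14 against 7 and 12 when all libraries were thinned to the smallest.

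Sums by paralog group, a grouping chosen after the values were seen, separated the anterior and central genes from the posterior ones. The 8 genes of groups 1 to 3 were at 10.2 and 6.53 CPM in WT and at 1.76 and 3.53 CPM in UNC0642-treated Setdb1 KO mESCs. The 15 genes of groups 4 to 8 were at 9.75 and 6.49 CPM in WT and at 1.76 and 3.49 CPM in the combined condition. The 16 genes of groups 9 to 13 were at 7.14 and 6.75 CPM in WT and at 5.29 and 7.98 CPM in the combined condition. The combined condition was thus below WT in the first and the second class, without overlap, and spanned the WT values in the third. Within the third class, however, Hoxb13 was below WT in the combined condition, without overlap. For UNC0642 the 3 classes were at 3.76 and 9.75, 4.70 and 7.70, and 7.05 and 9.24 CPM, and for Setdb1 KO at 3.60 and 11.6, 3.09 and 6.49, and 7.91 and 7.26 CPM. Such a sum follows mainly its most abundant genes and need not hold for each member. The difference between classes was not tested.

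Whether G9a and GLP activity alone bears on Hox genes was asked by comparing UNC0642-treated with WT mESCs. No Hox gene was called by edgeR (adjusted p under 0.05), and 0% of the 16245 genes and repeat subfamilies tested were called in either direction. None was called by DESeq2 or with the replicate number as a block, a fit that called 0.166% of all features higher and 0% lower, and 0 of the 13 tested Hox genes had an unadjusted p under 0.05, against 2.96% higher and 0.394% lower over all tested features. Hoxb13, the most posterior gene of HoxB, was at 1.92 and 1.55 CPM in WT and at 0.141 and 1.22 CPM with UNC0642 (log2 fold change -1.31, 95% interval -3.37 to 0.75). This value was -0.50 without replicate 1 of UNC0642 and -3.58 without replicate 2. Hoxa3, a gene of pharyngeal and hindbrain patterning, was at 1.13 and 1.19 CPM in WT and at 0.658 and 1.11 CPM with UNC0642 (log2 fold change -0.38, -1.96 to 1.20). These were the 2 Hox genes with both treated libraries below both WT libraries, against 10.7% of all features, and none was above (13.7%). The intervals of all 13 genes included 0. All 13 also reached past a 2-fold change in at least 1 direction, so that a change of this size was not detectable at this depth and replication.

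Setdb1 KO mESCs were compared with WT in the same way. No Hox gene was called, by edgeR, by DESeq2 or with the replicate block, against 1.11% of all features called higher and 0.00616% called lower (3.8% and 0.492% with the block). No tested Hox gene had an unadjusted p under 0.05 by edgeR, against 7.07% of all features higher and 1.63% lower, and with the block Hoxc13 did above and Hoxa5 below WT. Hoxc13, a posterior gene known for its role in hair and nails, was at 0.958 and 0.469 CPM in WT and at 2.67 and 2.86 CPM in Setdb1 KO, the only tested Hox gene with both KO libraries above both WT libraries (17.5% of all features). The log2 fold change of Hoxc13 came to 1.99 (SE 1.01, 95% interval -0.27 to 4.25, adjusted p = 0.685 by edgeR). Hoxa7, a trunk gene, was at 1.04 and 1.33 CPM in WT and at 0.804 and 0.330 CPM in Setdb1 KO (log2 fold change -1.06, and -1.84 and -0.60 without its replicate 1 and 2). Hoxb13 was at 0.846 and 0.880 CPM (-1.0) and Hoxa3 at 0.846 and 0.990 CPM (-0.34) in Setdb1 KO, and these 3 genes were the ones below WT without overlap (13.1% of all features). The exons of Hoxa7 overlap those of 2700086A05Rik, on the opposite strand, over 20.4% of their length, and the counting tool was run with its default strand setting, whose value is not given in the sources used here, so reads of both may not have been told apart.

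Hoxb1, Hoxb2 and Hoxb3, the anterior genes of HoxB, stood out in 1 library, a pattern singled out after their values were seen. In replicate 2 of Setdb1 KO they had 31, 23 and 13 counts. In the 7 other libraries Hoxb1 had 0 to 7 counts, Hoxb2 0 to 10 and Hoxb3 0 to 2. Replicate 1 of Setdb1 KO had 7, 4 and 0 counts, so the higher counts were not shared by the replicates, and none of these genes passed the filter.

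Of the 4 conditions, UNC0642-treated Setdb1 KO mESCs had the lowest mean of the summed Hox level, although replicate 2 (15.0 CPM) was above replicate 1 of Setdb1 KO (14.6 CPM). No Hox gene was called by edgeR without a block, against 3.6% of all features called higher and 0.505% called lower. With the replicate number as a block 2 Hox genes, Hoxa3 and Hoxa5, were lower, against 7.19% of features called lower and 9.98% called higher in that fit, and DESeq2 called Hoxa3. An unadjusted p under 0.05 was found for Hoxa3, Hoxc4 and Hoxa5, each lower (3 of 13, against 7.11% of all features lower), and for no Hox gene higher (10.9%). Both libraries were below both WT libraries for 7 of 13 genes, Hoxa3, Hoxa5, Hoxa7, Hoxb13, Hoxc4 and Hoxd8 among them, against 21.1% of all features, and above for none (22.3%).

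Hoxa3 had 13 and 33 counts in WT, 14 and 31 with UNC0642, 20 and 18 in Setdb1 KO and 1 and 3 in the combined condition. These corresponded to 1.13 and 1.19 CPM, 0.658 and 1.11 CPM, 0.846 and 0.990 CPM, and 0.104 and 0.110 CPM. The 6 libraries with 1 treatment or none lay close together, and both libraries of the combined condition were at the detection floor. Against WT the log2 fold change came to -3.36 with an SE of 0.86 (95% interval -5.30 to -1.41). Its adjusted p was 0.0655 by edgeR, 0.0200 with the replicate block and 0.0433 by DESeq2. As a ratio of summed counts the level was 0.0925 of WT (95% counting interval 0.0242 to 0.253). The log2 fold change was -3.41 to -3.31 when any 1 library was left out. Against Setdb1 KO it was -3.02 (adjusted p = 0.690) and against UNC0642 alone -2.97 (adjusted p = 0.199). The test of the interaction, whether the combined change differs from the sum of the single ones, gave -2.63 for Hoxa3 (95% interval -5.12 to -0.15, unadjusted p = 0.0398, edgeR adjusted p = 1.00), and 0% of all features were called. Its exons overlap those of 2700086A05Rik, on the opposite strand, over 4.94% of their length.

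Hoxa5, a gene of lung and cervical patterning, was at 1.57 and 2.89 CPM in WT, 0.799 and 2.01 CPM with UNC0642, 0.296 and 1.71 CPM in Setdb1 KO and 0.208 and 0.625 CPM in the combined condition. Within each replicate the level was lower at each step of that order, and Setdb1 KO overlapped WT while the combined condition did not. In the combined condition its log2 fold change came to -2.31 with an SE of 1.01 (adjusted p = 0.268 by edgeR), and was -3.40 without replicate 2 of the combined condition and -1.79 without replicate 2 of WT. In the fit with the block it came to -2.52 (adjusted p = 0.0334).

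Hoxc4, the gene of HoxC with the lowest paralog number, was at 1.83 and 0.649 CPM in WT, 0.658 and 1.04 CPM with UNC0642, 0.762 and 1.21 CPM in Setdb1 KO and 0.104 and 0.294 CPM in the combined condition. Both libraries of the combined condition were below all 6 others, and the others overlapped. For Hoxc4 the log2 fold change came to -2.43 with an SE of 0.93 (adjusted p = 0.203 by edgeR, 0.0920 with the block) and was -3.45 without replicate 2 of the combined condition and -1.54 without replicate 1 of WT.

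Hoxd8, a trunk gene of HoxD, was at 1.39 and 0.253 CPM in WT, 0.705 and 0.755 CPM with UNC0642, 0 and 0.605 CPM in Setdb1 KO and 0.208 and 0.221 CPM in the combined condition. The difference between the WT libraries exceeded that between WT and the combined condition (log2 fold change -1.83 in the combined condition, 95% interval -5.05 to 1.38). Hoxb13 was at 0.415 and 0.515 CPM in the combined condition (log2 fold change -1.86, -4.02 to 0.31), below WT and Setdb1 KO without overlap.

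Among the tested posterior genes Hoxd13, Hoxc13, Hoxb9 and Hoxa10 overlapped WT in the combined condition, whereas Hoxb13 was below WT. Hoxd13, a limb and genital patterning gene, was at 2.61 and 1.91 CPM in WT, 4.46 and 2.34 CPM with UNC0642, 2.12 and 1.60 CPM in Setdb1 KO and 2.18 and 1.4 CPM in the combined condition. All conditions overlapped WT, and the log2 fold change in the combined condition was -0.35 (95% interval -1.79 to 1.09). Hoxc13 was at 0.470 and 2.01 CPM with UNC0642 and at 0.519 and 3.31 CPM in the combined condition, where replicate 1 was within the WT range (log2 fold change 1.51, -0.74 to 3.76, edgeR adjusted p = 0.496). Hoxb9, a posterior trunk gene, was at 0.261 and 0.938 CPM in WT, 0.470 and 1.33 CPM with UNC0642, 0.635 and 1.21 CPM in Setdb1 KO and 0.623 and 1.76 CPM in the combined condition. Replicate 2 was the higher one in each condition for Hoxb9, and the log2 fold change in the combined condition was 0.96 (-1.14 to 3.06).

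**Figure D4:**
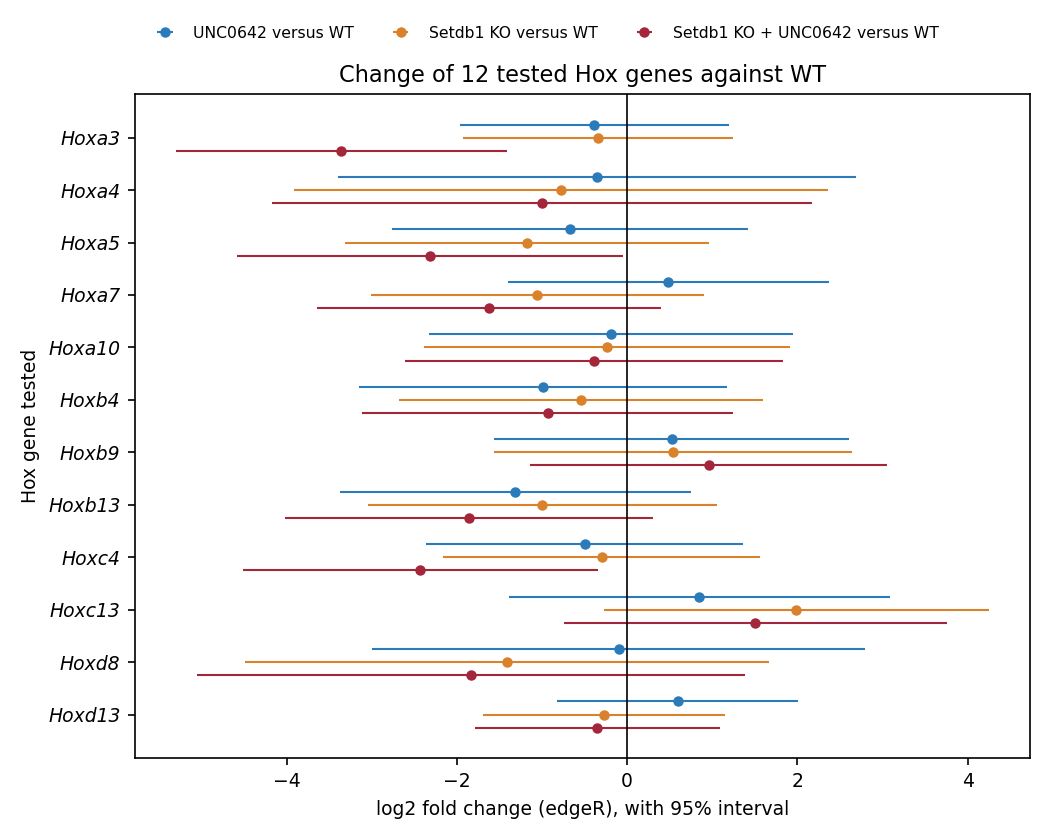
Log2 fold change against WT (x axis, edgeR, points) with 95% intervals (lines) of 12 tested Hox genes (y axis) for UNC0642-treated and Setdb1 KO mESCs and for the combined condition. There the intervals of Hoxa3, Hoxa5 and Hoxc4 lay below 0, and no interval lay above 0 in any comparison.

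Hoxa4, Hoxa10 and Hoxb4 had log2 fold changes of -1.0, -0.39 and -0.93 in the combined condition and overlapped WT. The median over the 13 tested genes was -0.30 with UNC0642, -0.49 in Setdb1 KO and -1.62 in the combined condition, against -0.04, -0.06 and -0.06 over all 15313 tested genes. Without replicate 1 of WT the last Hox median was -0.88. In the combined condition the median was -1.69 over the 5 tested mesoderm markers, 1 of them above 0, and -0.63 over the 8 primitive endoderm markers, 1 of them above 0. It was -0.10 for trophectoderm, 0.23 for embryonic fibroblast, 0.28 for primed epiblast and 0.38 for neural markers, so the lists did not share a direction. The part of such cells in the Hox change was not tested. The 3 comparisons share the WT libraries. Within the replicate numbers the median was -0.98 and 0.50 with UNC0642, -1.17 and 0.25 in Setdb1 KO, and -2.63 and -0.80 in the combined condition, so the sign was shared by both replicates in the combined condition only. In that condition 11 of 13 log2 fold changes were below 0, against 50.6% of all features. The count was not particular to it, with 11 of 13 below 0 in Setdb1 KO and 9 of 13 with UNC0642. Replicate 1 of the combined condition, 1 of the 2 shallowest libraries with 11897456 counts, was the lowest library for 7 of the 13 genes. Libraries also differed by base composition. The median deviation of the tested genes in the highest of 20 bins of GC content was -0.42 and 1.18 on the log2 scale in WT and -0.91 and 0.26 in the combined condition, and the tested Hox genes had a median GC content of 53.4% (47.4% to 58.0%) against 49.8%. With a correction for this and the replicate block, chosen after the data were seen, Hoxa3 had a log2 fold change of -3.13 (adjusted p = 0.0298) and Hoxa5 of -2.54 (adjusted p = 0.0357).

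Direct comparisons of the combined condition with each single treatment called no Hox gene, by edgeR, by DESeq2 or with the block. Against Setdb1 KO 0% of all features were called in either direction, and 0.123% higher and 0.00616% lower with the block. There 2 Hox genes (Hoxa3 and Hoxc4) were lower at an unadjusted p under 0.05 (1.79% of all features), none was higher (2.79%), and 3 were below without overlap (13.3%) and none above (12.2%). Hoxc4 had a log2 fold change of -2.13 there (95% interval -4.20 to -0.07). Against UNC0642-treated mESCs 1.13% of features were called higher and 0.0369% lower (3.82% and 0.831% with the block). Hoxa3 and Hoxa7 had an unadjusted p under 0.05 (2.7% of all features lower), and no Hox gene did above (6.37%). Hoxa7 was at 1.22 and 2.12 CPM with UNC0642 and 0.104 and 0.588 CPM in the combined condition (log2 fold change -2.11, -4.12 to -0.09, edgeR adjusted p = 0.510). 6 Hox genes were below without overlap in that comparison (16.7%) and none above (16.3%). The test of the interaction gave an unadjusted p under 0.05 for Hoxa3 below 0 (0.566% of all features) and for no Hox gene above 0 (0.185%).

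The machinery that acts on Hox genes was followed through lists drawn up by function. In the combined condition none of 12 PRC2 genes, 19 PRC1 genes or 11 genes of trithorax-type activators and H3K27 demethylases was called by edgeR, with median log2 fold changes of -0.06, -0.16 and -0.31. With the block 1 PRC2 gene was higher (Rbbp7, 0.87), and 1 PRC1 gene was higher and 1 lower, against 9.98% of all features higher and 7.19% lower in that fit. Bmi1, a PRC1 component that represses Hox genes, was at 17.5 and 12.3 CPM in WT, 31.4 and 22.8 with UNC0642, 57.6 and 29.2 in Setdb1 KO and 66.0 and 50.9 CPM in the combined condition. The 3 treated conditions were above the same WT libraries without overlap, as were 13.7% of all features with UNC0642, 17.5% in Setdb1 KO and 22.3% in the combined condition. The log2 fold change of Bmi1 was 1.97 in the combined condition (edgeR adjusted p = 0.0545, 0.00218 with the block). Cbx2, a PRC1 subunit that can read H3K27me3, was at 18.3 and 33.3 CPM in WT and 9.86 and 9.48 CPM in the combined condition (-1.42, adjusted p = 0.142, 0.0216 with the block). Other CBX subunits of the PRC1 list had higher levels. Cbx7 was at 55.4 and 136 CPM in WT and 52.2 and 153 CPM in the combined condition, and Cbx6 at 34.6 and 51.1 against 28.4 and 33.1 CPM. Among PRC2 genes Ezh1 (-1.01) and Phf19 (-1.06) had the smallest p. Kmt2b, which methylates H3K4 at Hox promoters, and Kdm6b, an H3K27 demethylase, had log2 fold changes of -1.18 and -1.16 (adjusted p = 0.254 and 0.255).

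None of 9 TALE cofactors, which bind DNA together with HOX proteins, was called in the combined condition, with log2 fold changes of -1.53 for Pbx3 and 1.66 for Pknox2. Of 14 homeobox genes beside or related to the clusters 8 were tested and none was called. Mnx1 and Pdx1, with the smallest p among them, had 4 and 19 and 0 and 15 counts in WT against 0 and 2 and 0 and 1 counts in the combined condition. Of 14 genes of retinoic acid signalling none was called without the block and 2, Crabp1 and Rxra, were lower with it (7.19% of all features). Crabp1, which binds retinoic acid in the cytosol, was at 5.31 and 10.7 CPM in WT and 0.934 and 2.61 CPM in the combined condition (-2.14, edgeR adjusted p = 0.173, 0.00770 with the block). Cyp26a1, which degrades retinoic acid and is itself induced by it, was at 0.783 and 2.34 CPM against 0.208 and 0.478 CPM (-2.11, adjusted p = 0.226, 0.0579 with the block). No member of these 6 lists was called by edgeR in mESCs with a single treatment. With the block Bmi1 was higher in Setdb1 KO (3.8% of all features were called higher in that fit).

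Other developmental regulators known as Polycomb targets in mESCs were compared with Hox genes. Of 25 such genes 14 were tested and none was called in the combined condition without the block, with a median log2 fold change of -0.56, and 3, Olig2 and Eomes among them, were lower with the block (7.19% of all features). Olig2, a neural and glial regulator, was at 10.8 and 36.3 CPM in WT, 9.07 and 15.7 with UNC0642, 6.60 and 9.30 in Setdb1 KO and 3.32 and 4.37 CPM in the combined condition (-2.61, edgeR adjusted p = 0.0655, 0.00627 with the block). The summed level of the 25 genes was 156 and 134 CPM in WT, 164 and 88.9 with UNC0642, 85.1 and 66.3 in Setdb1 KO and 88.4 and 33.7 CPM in the combined condition. As for Hox genes, the combined condition did not overlap WT in this sum, but here Setdb1 KO did not either.

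Germline genes had medians above 0 in Setdb1 KO and in the combined condition. All 20 were tested, and 12 rose and none fell in the combined condition by edgeR, with a median log2 fold change of 2.75, where 3.6% of all features were called higher. In Setdb1 KO 8 rose (median 2.54, against 1.11% of all features), and with UNC0642 none did (0.25, against 0%; 1 rose with the block). Taf7l, a germ cell paralog of a TFIID subunit, was at 2.87 and 2.60 CPM in WT, 3.20 and 3.45 with UNC0642, 44.4 and 51.0 in Setdb1 KO and 29.2 and 63.8 CPM in the combined condition (log2 fold change 4.09, edgeR adjusted p = 0.00573). Slc25a31, a germ cell ADP/ATP carrier, was at 1.57 and 2.85 CPM in WT and 34.9 and 53.4 CPM in the combined condition (4.30, adjusted p = 0.00576). In the same libraries no tested Hox gene was called higher.

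**Figure D5:**
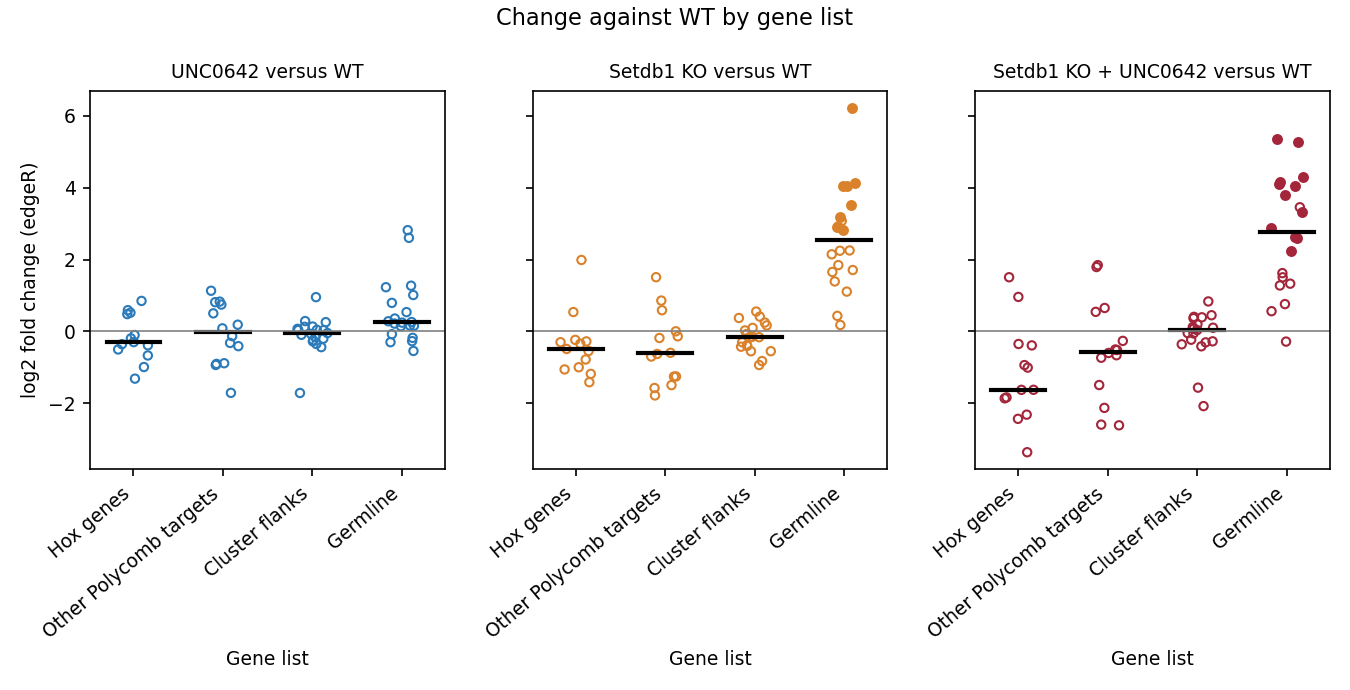
Log2 fold change against WT (y axis, edgeR) of the tested members of 4 gene lists (x axis) in the 3 treated conditions (panels), with 1 point per gene, filled where the adjusted p was under 0.05, and bars at the median. No Hox gene was called in any panel, and 8 and 12 germline genes were called higher in Setdb1 KO and in the combined condition.

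The genes flanking the clusters did not share the Hox pattern by their median. These were the 3 nearest genes on each side of each cluster, with symbols starting with Hox, Hot, Evx or Mir left out. They lay 28.9 kb (Ttll6) to 910 kb (Nfe2l2) from their cluster. Of 24 such genes 19 were tested, and none was called in the combined condition, with a median log2 fold change of 0.04, while Calcoco2 (-1.56, adjusted p = 0.140, 0.0439 with the block) and Ttll6 (-2.08, 0.280, 0.0265 with the block), were lower with the block (2 of 19, against 7.19% of all features). Of 12 non-coding genes of the clusters found in the files, 7 had 0 counts throughout, among them Hotair and 5 of the 6 microRNA genes, and 1 could be tested. This was Gm15055 (Halr1), 41.9 kb from HoxA and also among the flanking genes. It was at 23.0 and 26.4 CPM in WT and 46.6 and 41.6 CPM in the combined condition (log2 fold change 0.84, edgeR adjusted p = 0.349), above WT without overlap (22.3% of all features). MicroRNA genes are poorly seen in polyadenylated RNA.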

How the data were processed

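RNA-seq libraries of 8 mESC cultures in 4 conditions, grouped by their labels, were analysed. The authors trimmed the reads with Trim Galore (0.3.7), mapped them to GRCm38 with TopHat2 and counted them with TEtranscripts. The deposited files hold raw counts of genes and of repeat subfamilies that had not been normalized. TEtranscripts shares reads that map to several positions, and it was run with default settings. The annotation and the value of the default strand setting were not given in the sources used here.

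Low features were removed by filterByExpr with its defaults, a minimum count of 10 and a minimum total of 15, leaving 15313 genes and 932 subfamilies. TMM factors were 0.810 to 1.20, and the quasi-likelihood model of edgeR (4.0.16, R 4.3.3, prior count 0.125) was fitted over the 8 libraries, each condition having its own coefficient. Benjamini-Hochberg adjustment of p covered all features of a comparison, and features were called at an adjusted p under 0.05. Levels are CPM with TMM-scaled library sizes. The SE was computed from the fold change and its F statistic, and intervals cover 95%. The fits were tested on simulated data. Between 11702590 and 26807807 counts per library limit the precision, and floors and Poisson intervals cover counting error only.

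Deviations of equally numbered replicates correlated at 0.249 to 0.625 between the 6 pairs of conditions (across genes, which are not independent), so the numbers were taken as pairs and the fit with a replicate block was run beside the fit without it. Alternatives were DESeq2 (1.42.0) on all 8 or the 4 compared libraries, edgeR on those 4, RLE or total count scaling, no filter, a prior count of 2, thinned counts, genes without subfamilies and leaving out each library. The 6 deeper libraries and a GC correction were added after the data were seen.

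The Hox genes and all lists were chosen with earlier results of these data known. Described singly are the 2 Hox genes of each cluster with the highest mean CPM and, for each comparison with WT and direction, up to 3 tested ones of smallest p among those where neither treated library overlapped WT. From each other list, they are the 2 called genes with the smallest p, or the 2 genes with the smallest p in the combined condition where none was called. Of these, 1 Hox gene and 1 Polycomb target are not reported singly here. Gene positions are those of GENCODE on GRCm38, matched by symbol, and promoters are those of RefSeq.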

Additional observations from a re-analysis of the deposited data

How the results depend on the processing

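Hox calls changed in the combined condition against WT only: 2 genes with the replicate block, 2 with the block and the GC correction (added after the data were seen) and 1 by DESeq2 on all 8 libraries, against 0 without these and 0 when any 1 library was left out. The block changed no other Hox call. For the combined condition against UNC0642 the median log2 fold change of tested Hox genes was -1.12 with total counts, -0.69 without a filter, -1.28 with thinned counts and -1.17 in the 6 deeper libraries, against -0.94. For the interaction it was -0.69 with total counts and -0.92 with thinned counts, against -0.47. In the 6 deeper libraries the medians against WT were -0.80 for the combined condition, -0.13 for Setdb1 KO and 0.07 for UNC0642, and without a filter -0.93, -0.28 and -0.08, against -1.62, -0.49 and -0.30. Leaving out 1 library gave -2.23 to -0.88 for the combined condition against WT, -0.80 to -0.13 for Setdb1 KO and -0.63 to 0.06 for UNC0642, each time the highest without replicate 1 of WT. It gave -1.86 to -0.24 against Setdb1 KO, the lowest without replicate 2 of the combined condition, and -1.77 to -0.32 against UNC0642, the lowest without the same library and the highest without replicate 2 of UNC0642 (-1.53 without its replicate 1). For the interaction the range was -1.50 to 0.21, above 0 without replicate 2 of Setdb1 KO and without replicate 2 of UNC0642 (0.11). With total counts the summed Hox level was 21.8 CPM in WT replicate 2, 32.1 in UNC0642 replicate 2, and 12.9 and 28.0 in Setdb1 KO. Above 10 counts, 10 Hox genes were found in WT replicate 1, 9 and 14 with UNC0642, 10 in Setdb1 KO replicate 1 and 2 and 9 in the combined condition. With thinned counts, 11 were above 3 counts in Setdb1 KO replicate 1 and 12 in replicate 2 of the combined condition. The cause of these changes was not tested. The interaction could not be computed from the 4 libraries of a pair of conditions. At these low counts and with 2 libraries a condition, a Hox gene without a call is not shown to be unchanged.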
